A study of Homo sapiens with 9 samples.

Results

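Prostaglandins are short-lived lipid signals made from arachidonic acid. A cytosolic phospholipase A2 encoded by PLA2G4A releases the fatty acid from membrane phospholipids, and the cyclooxygenases PTGS1 and PTGS2 oxidise it to the unstable precursor that terminal synthases turn into prostaglandin E2 or prostacyclin. PTGS1 is known as the constitutive enzyme and PTGS2 as the inducible enzyme of inflammation and mitogen response, while the receptors PTGER2 and PTGER4 raise cyclic AMP and HPGD starts the breakdown of prostaglandins. The genes described here are 10 genes of this pathway, PLA2G4A, PTGS1, PTGS2, PTGES, PTGES2, PTGES3, PTGIS, PTGER2, PTGER4 and HPGD, out of 19483 genes that the array names through a RefSeq accession. Measured were all 11 probes whose accession maps to them, with 2 probes for PTGS1 and 1 for each of the others.

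The arrays measured total RNA from HEK293 cells, an established line from human embryonic kidney, in 3 groups of 3 arrays. KD3 cells stably carried shRNA 3 and KD4 cells shRNA 4, both against SmcHD1, a chromatin protein of the SMC family known for its part in X inactivation. CTL cells carried the control shRNA NC5. All 3 groups were infected with a retrovirus from the same vector type, selected with puromycin and grown as populations rather than single clones, with no further treatment. The comparison asks how levels of messenger RNA differ once SmcHD1 is reduced. The methods call the arrays biological triplicates, but whether they came from separate infections is not given in the sources used here, so that the spread between arrays may be technical. The members were chosen by their function with the measured differences of these 3 groups already in view, that is, selected on the same log2 signals. Their levels are therefore given as a description, with standard errors and no test.

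The brightest of the 3 SMCHD1 probes was lower than in CTL, at -0.97 (KD3) and -1.53 (KD4) on the log2 scale (standard error 0.0897, adjusted p = 0.000214 and 1.81e-05 from limma). The median signal of an array was between 119.6 and 181.4, and 75.1% to 79.8% of 42405 probes were well above background. All 9 markers listed for HEK293 cells were above background on every array, although PAX2, a kidney transcription factor among them, had a mean log2 signal of 10.96 in CTL, 8.56 in KD3 and 8.31 in KD4. Of the markers for other cells that have a probe, 6 of 6 myeloid, 3 of 7 fibroblast and 2 of 6 endothelial genes were above background on all 9 arrays, and COL1A2, COL3A1, THY1, PECAM1 and CLDN5 were above it on none. The summed endothelial signal was 158.1 to 185.8 in KD3, 174.7 to 193.4 in KD4 and 200.4 to 212.9 in CTL. The summed fibroblast signal was 573.3 to 628.3 in KD3, 744.8 to 796.9 in KD4 and 718.6 to 842.9 in CTL. The summed HEK293 signal was 157370 to 175293 in KD3, 182063 to 184340 in KD4 and 166991 to 180903 in CTL, and the myeloid sums of the groups overlapped. The part of these differences in the results below was not tested.

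The 3 members whose levels stood farthest from CTL were PLA2G4A, PTGS2 and PTGES, and the 250 bases before their RefSeq transcript starts (GRCh38.p14) are shown because the results turn on these genes. Capitals mark every CG dinucleotide, the site of DNA methylation in mammals. PLA2G4A lies on the plus strand at chr1:186828699-186828948, PTGS2 on the minus strand at chr1:186680424-186680673 and PTGES on the minus strand at chr9:129753043-129753292.
PLA2G4A: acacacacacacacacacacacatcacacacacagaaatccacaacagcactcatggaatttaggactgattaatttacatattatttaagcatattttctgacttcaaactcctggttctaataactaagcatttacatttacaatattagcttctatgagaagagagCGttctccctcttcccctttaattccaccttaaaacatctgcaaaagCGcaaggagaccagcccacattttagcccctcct
PTGS2: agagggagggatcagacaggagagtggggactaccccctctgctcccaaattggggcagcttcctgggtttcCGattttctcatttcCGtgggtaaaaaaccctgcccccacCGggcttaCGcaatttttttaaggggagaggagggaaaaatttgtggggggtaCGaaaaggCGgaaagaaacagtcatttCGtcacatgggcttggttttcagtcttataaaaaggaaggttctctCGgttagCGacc
PTGES: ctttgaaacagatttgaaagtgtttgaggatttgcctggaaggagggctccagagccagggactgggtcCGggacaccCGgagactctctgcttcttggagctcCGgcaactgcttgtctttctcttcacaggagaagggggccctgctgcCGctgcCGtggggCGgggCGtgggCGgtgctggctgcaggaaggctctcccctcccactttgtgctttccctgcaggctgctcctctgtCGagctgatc

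The PLA2G4A window opens with a run of CA repeats and holds 2 CG dinucleotides, and the PTGS2 and PTGES windows hold 9 each. The median over 35116 windows of the same length was 11, with quartiles of 3 and 23. Among the other members, PTGER2 had 28 CG dinucleotides, PTGER4 had 26 and PTGES3 had 30. PTGES2 had 21 to 35 over its 3 listed starts, HPGD had 29 and 4 at its 2 starts, and PTGS1 had 4 and 7. PTGIS was not matched. Searched on both strands, the letters TATAAA were found in the PTGS2 window with their first base 32 bases before the start, and in 10.7% of all windows. The letters TTCGTCA, the cyclic AMP response element described for PTGS2, began 60 bases before its start and were found in 0.814% of all windows. The letters CCAAT stood in the PTGS2 window on the opposite strand, 201 bases before the start, in PTGER4 at 83 and 74 bases and in HPGD at 236 bases, against 32% of all windows. No other match was found except TATAAA on the opposite strand of the first PTGS1 start. The array holds no methylation or binding data.

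PLA2G4A and PTGS2 were higher in both knock-downs, and PTGES, the inducible prostaglandin E synthase downstream of PTGS2, was lower. In bulk RNA, a change in the number of cells that express a gene and a change in RNA per cell cannot be told apart. For PLA2G4A the normalized log2 signal was 9.57, 9.25 and 9.35 on the KD3 arrays, 9.15, 9.10 and 9.12 on the KD4 arrays, and 7.06, 7.19 and 6.89 on the CTL arrays. Every knock-down array lay above every CTL array, and every KD4 array lay below every KD3 array. Against CTL PLA2G4A was 5.07-fold (KD3) and 4.22-fold (KD4) higher (log2 fold changes 2.34 and 2.08, standard error 0.105). Within slide 1 the differences were 2.21 in KD3 and 2.07 in KD4, and within slide 2 they were 2.40 and 2.09.

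PTGS2 had log2 signals of 5.00, 4.67 and 4.76 in KD3, 4.32, 4.23 and 4.27 in KD4, and 3.50, 2.80 and 3.17 in CTL. The groups did not overlap, and their order was KD3, then KD4, then CTL. Against CTL PTGS2 was 3.15-fold (KD3) and 2.16-fold (KD4) higher (log2 fold changes 1.66 and 1.11, standard error 0.166). The probe was dim: it was well above background on all 6 knock-down arrays but on 1 of 3 CTL arrays. PTGS2 thus passed the filter on dim probes only through the knock-downs, where it was high. Within slide 1 the differences were 1.69 and 1.26, and within slide 2 they were 1.38 and 0.81. With normexp background correction, which adds an offset of 50 to every signal and so shrinks differences between dim spots, the log2 fold changes were 0.36 and 0.19.

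Neither PTGS1 probe stood well above background on even 1 of the 9 arrays, and the gene was not tested. Its first probe lay between 1.18 and 2.42 on the log2 scale and its second between 1.12 and 2.31, with the 3 groups overlapping for both. Any expression of the constitutive cyclooxygenase was thus not detectable with these probes.

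**Figure D1:**
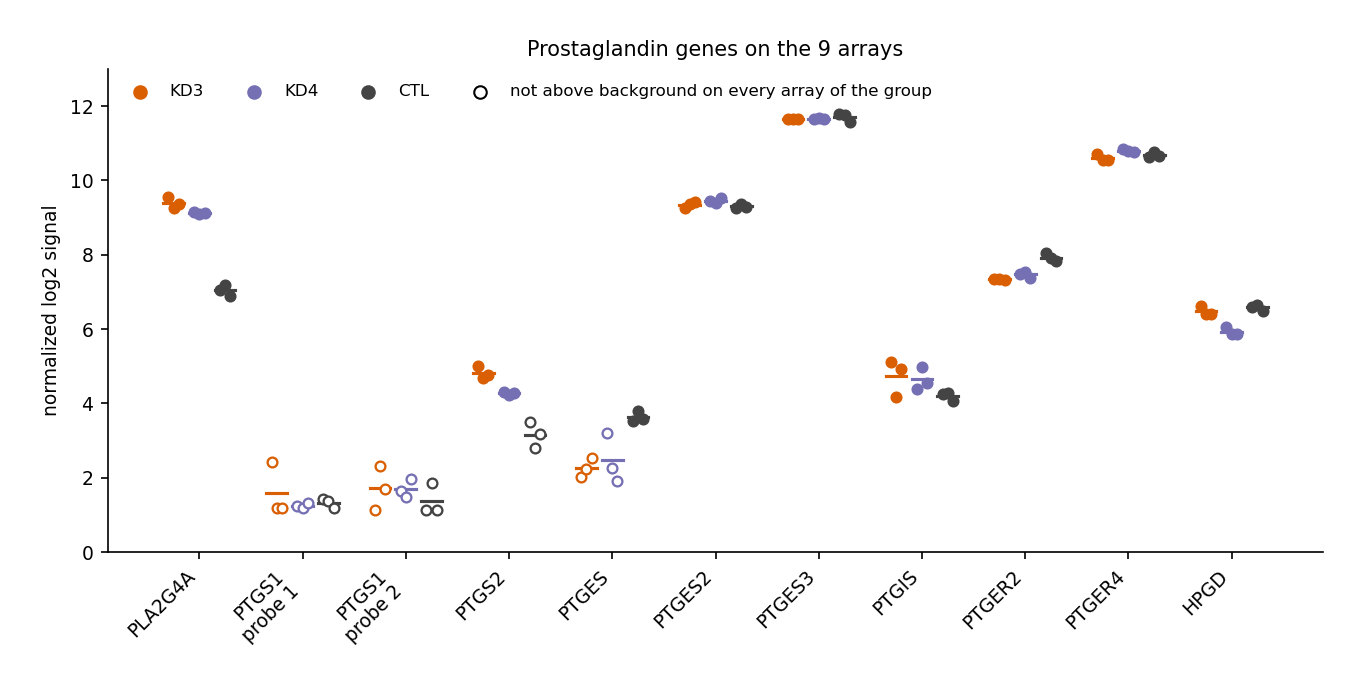
Normalized log2 signal (vertical axis) of each probe of the 10 prostaglandin genes (horizontal axis) on the 9 arrays, with a point for each array, a bar for the group mean and open points where the probe was not well above background on every array of the group. PLA2G4A and PTGS2 stood higher on all 6 knock-down arrays and PTGES and PTGER2 lower, while PTGS1 was at background throughout.

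Of the terminal synthases, PTGES had log2 signals of 2.02, 2.22 and 2.52 in KD3, 3.20, 2.27 and 1.92 in KD4, and 3.53, 3.80 and 3.58 in CTL. All 6 knock-down arrays lay below the 3 CTL arrays, with KD4 replicate 1 nearest to them. The probe was well above background on all 3 CTL arrays and on no knock-down array, so it passed the filter on dim probes only through the group where it was high. A floor was taken array by array, as the dimmest signal that counted as above background (or the PTGES signal itself if that was brighter). With it PTGES was 2.27-fold lower in KD3 (measured log2 fold change -1.38, standard error 0.290) and 2.00-fold lower in KD4 (measured log2 fold change -1.17). Some probes not above background exceed that dimmest signal, among them PTGES itself on KD3 replicate 3 (2.52 against 2.25) and KD4 replicate 1 (3.20 against 2.48). These folds are therefore no bounds. In KD4 the difference was -1.59 within slide 1 and -0.33 within slide 2, which holds 1 array of each of these groups, and in KD3 it was -1.46 and -1.26. With normexp background correction the log2 fold changes were -0.16 and -0.10.

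PTGES2, a second prostaglandin E synthase, and PTGES3, which is also the p23 co-chaperone of HSP90, kept close to CTL. The PTGES2 signal ranged over 0.26 log2 units across the 9 arrays, with log2 fold changes of 0.05 in KD3 and 0.15 in KD4 (standard error 0.0708). The PTGES3 signal ranged over 0.20 units, with log2 fold changes of -0.06 and -0.05 (standard error 0.0723). PTGIS, the prostacyclin synthase, had log2 signals of 5.10, 4.18 and 4.93 in KD3, 4.39, 4.99 and 4.55 in KD4, and 4.24, 4.28 and 4.06 in CTL. Its log2 fold changes were 0.54 and 0.45 with a standard error of 0.240, and the KD3 arrays overlapped the CTL arrays. Within slides the KD3 difference was 0.01 and 0.77, and the KD4 difference 0.60 and 0.15.

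The prostaglandin E2 receptors were both well above background on every array. PTGER2 had log2 signals of 7.35, 7.36 and 7.33 in KD3, 7.49, 7.55 and 7.39 in KD4, and 8.04, 7.90 and 7.83 in CTL. All 6 knock-down arrays lay below CTL, at 66.9% of the CTL level in KD3 and 73.1% in KD4 (log2 fold changes -0.58 and -0.45, standard error 0.0779). PTGER4 differed less, with log2 fold changes of -0.09 in KD3 and 0.12 in KD4 (standard error 0.0750), and both knock-downs overlapped CTL.

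HPGD, the dehydrogenase that inactivates prostaglandin E2, separated the knock-downs from each other. Its log2 signals were 6.63, 6.40 and 6.39 in KD3, 6.04, 5.86 and 5.87 in KD4, and 6.61, 6.65 and 6.48 in CTL. KD3 overlapped CTL, whereas the KD4 arrays lay below all others, at 63.5% of the CTL level (log2 fold change -0.66, standard error 0.0936). The log2 difference of KD4 from KD3 was -0.55, and it was -0.54 within slide 1 and -0.47 within slide 2. In PLA2G4A and PTGS2 the KD4 arrays also lay below the KD3 arrays, by log2 differences of -0.26 and -0.54, while PTGER2 and PTGER4 were higher in KD4 than in KD3 by 0.13 and 0.20.

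**Figure D2:**
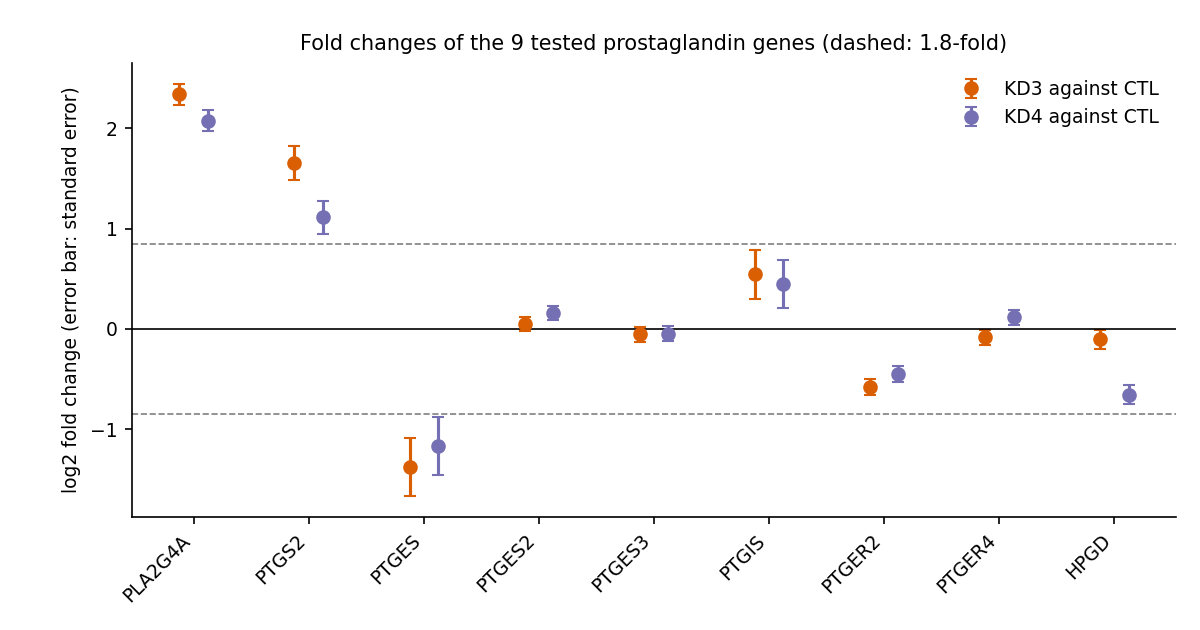
Log2 fold change against CTL (vertical axis) of the 9 tested prostaglandin genes (horizontal axis) in KD3 and KD4, with the standard error as error bars and dashed lines at a 1.8-fold difference. PLA2G4A and PTGS2 lay above the upper line and PTGES, which was not above background on the knock-down arrays, below the lower line in both knock-downs.

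By a fold of at least 1.8 and an adjusted p under 0.05 over all tested probes, 3 of the 9 tested members were past the thresholds in KD3, PLA2G4A and PTGS2 higher and PTGES lower. Over 16082 genes that share was 4.43% (1.29% higher and 3.14% lower). The same 3 members were past them in KD4, where the share was 5.59% (1.46% higher and 4.13% lower), and 3.3% of all genes were past them in the same direction in both. Between KD4 and KD3 no member was past the thresholds (0 of 9, against 0.547% of all genes). KD3 did not overlap CTL for 4 of 9 members, against 42.8% of all genes. KD4 did not overlap CTL for 7 members, against 53%, and the knock-downs did not overlap each other for 5, against 34.2%. All 6 knock-down arrays lay beyond CTL for 4 of 9 members and for 33.3% of all genes. PTGS2 and PTGES also passed the filter on dim probes only through the groups where they were high. Since the members were picked with these contrasts in view, nothing is read from these counts. The median log2 fold change of the members was -0.06 in KD3 and 0.12 in KD4, and that of all genes was -0.01 and 0.00.

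PLA2G4A and PTGS2 lie next to each other on chromosome 1, transcribed away from one another from starts 148526 bases apart, and no other tested gene lies between them. The 10 nearest tested genes on each side, in gene order and at distances not measured here, were set beside them. The next tested gene beyond PLA2G4A is BRINP3, a neural gene, which was higher in both knock-downs (log2 fold changes 2.46 and 1.55, standard error 0.229, adjusted p = 0.000221 and 0.00167 from limma). Its log2 signals were 6.48, 6.06 and 6.27 in KD3, 5.25, 5.45 and 5.36 in KD4, and 4.34, 3.77 and 3.31 in CTL, where 2 of 3 arrays were above background. BRINP3 thus passed the filter on dim probes only through the knock-downs, where it was high, and no rise is read from its p values. As with PTGS2, the groups did not overlap and KD3 was the highest. With normexp background correction the KD4 value of BRINP3 was 0.47, under the fold threshold. The methods' t-test with adjustment did not call BRINP3 in KD3 or KD4 (adjusted p = 0.0945 and 0.13). The next tested gene beyond PTGS2 is ODR4, whose log2 fold changes were 0.44 and 0.26 (standard error 0.0851), short of the 1.8-fold threshold, with all knock-down arrays above CTL.

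HMCN1, an extracellular matrix gene and the third tested gene beyond PTGS2, went the other way and fell in KD4 (log2 fold change -1.55, standard error 0.113, adjusted p = 4.87e-05 from limma). Its KD3 value was -0.84, a 1.79-fold difference that missed the fold threshold. KD4 minus KD3 was -0.71 (adjusted p = 0.0185 from limma), and every KD4 array lay below every KD3 array. In all, 1 of the 20 neighbours was past the thresholds in KD3 and 2 were in KD4 (5% and 10%), beside 4.43% and 5.59% of all genes. The median log2 fold changes of the neighbours were 0.08 and 0.11, and those of all genes were -0.01 and 0.00.

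Of the other neighbours on the PTGS2 side, TPR, IVNS1ABP, SWT1, TRMT1L, RNF2, NIBAN1, EDEM3 and C1orf21, the farthest from CTL was NIBAN1 with -0.71 and -0.72. On the PLA2G4A side, RGS2, UCHL5, RO60, GLRX2, CDC73, ASPM and ZBTB41 had log2 fold changes between 0.02 and 0.53, with RGS2, the first beyond BRINP3, at 0.08 and 0.19. CFHR4 had 0.25 and 1.15 (standard error 0.412, adjusted p = 0.73 and 0.0693 from limma). It was above background on 2 KD3, 3 KD4 and 1 CTL arrays. CFHR4 was thus tested only through KD4, where it was high, and no rise is read from its p values.

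**Figure D3:**
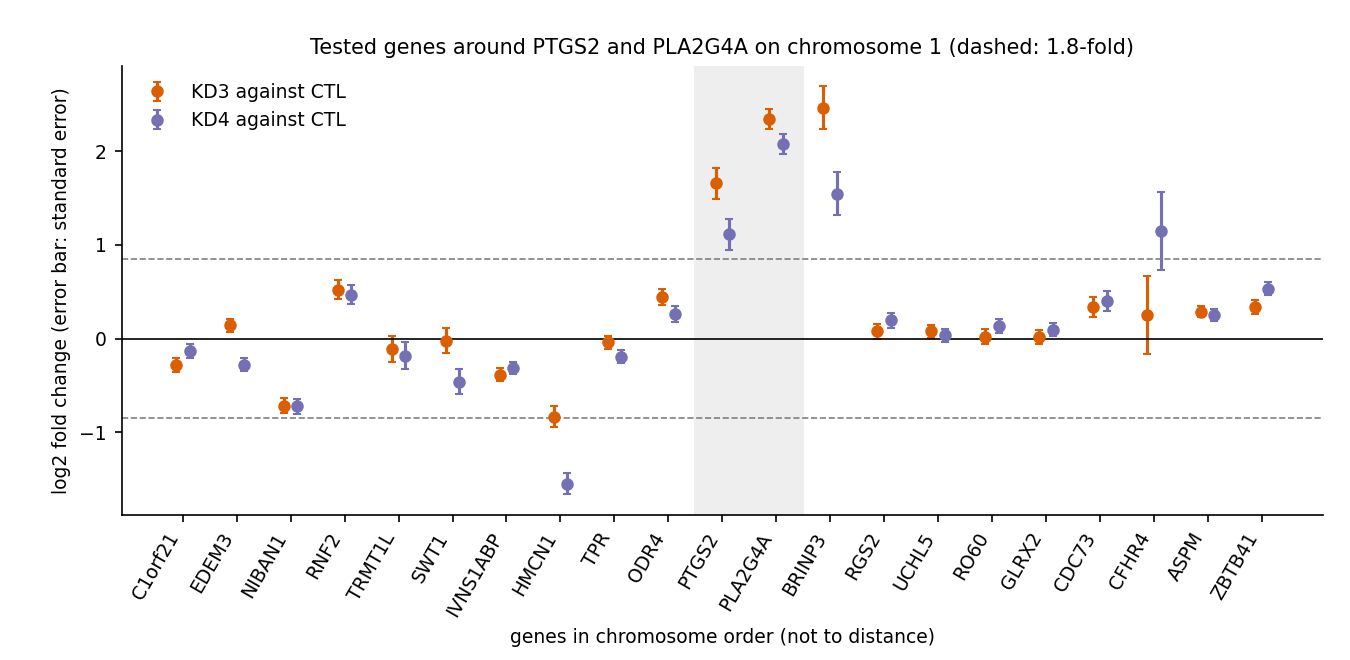
Log2 fold change against CTL (vertical axis) with the standard error for PTGS2 and PLA2G4A (shaded) and the nearest tested genes on either side that are named in the text, in chromosome order on the horizontal axis and not to distance. By brightest probes, only PTGS2, PLA2G4A and BRINP3, which follow one another among the tested genes, lay above the upper 1.8-fold line in both knock-downs. HMCN1 lay lowest, and the next tested genes on either side, ODR4 and RGS2, lay between the lines.

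Around the members, 130 further genes of arachidonate release, prostanoid and leukotriene metabolism, receptor signalling and PTGS2 regulation were listed, of which 104 were tested. In KD3, 2 of them rose and 7 fell, and in KD4, 2 rose and 9 fell, shares of 8.65% and 10.6% beside the 4.43% and 5.59% of all genes. The lower genes include PLA2G3 and, in KD4, PLA2G4D, which passed the filter on dim probes only through CTL. The median log2 fold change over the lists was -0.06 in KD3 and 0.02 in KD4. With normexp background correction, 3 and 4 genes were left. The folds of PLA2G3, SLCO2A1, LTC4S and EGR2 in both knock-downs, of PLA2G7 and CYSLTR1 in KD3 and of PLAAT3, PLA2G4D and PTGFR in KD4 were then under 1.8.

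Among 19 tested phospholipases and related lipases, PLAAT3, a phospholipase A of adipose tissue, rose. Its log2 signals were 8.38, 8.13 and 8.08 in KD3, 6.51, 6.53 and 6.76 in KD4, and 4.94, 4.77 and 4.95 in CTL, with no overlap among the groups. Its log2 fold changes were 3.31 and 1.71 (standard error 0.109, adjusted p = 2.33e-06 and 2.7e-05 from limma). PLA2G7, which hydrolyses platelet-activating factor rather than releasing arachidonate, fell in both (log2 fold changes -1.06 and -1.52, standard error 0.137, adjusted p = 0.00117 and 0.00015 from limma). PLA2G3, a secreted phospholipase A2, was above background on the CTL arrays alone. As measured it was 2.88-fold lower in KD3 and 2.40-fold lower in KD4. Its undetected signals already lay above the floor used for PTGES, so these folds are no bounds. With normexp background correction the log2 fold changes of PLA2G3 were -0.29 and -0.22. It passed the filter on dim probes only through CTL, the group where it was high, so that it had to be lower in the knock-downs, and no p is given. PLA2G4D, the delta isoform of the PLA2G4A family, was lower in KD4 (log2 fold change -1.58, standard error 0.373, adjusted p = 0.0141 from limma). In KD3 its log2 fold change was -1.04 (adjusted p = 0.0858 from limma), and the difference between the knock-downs did not pass the test (adjusted p = 0.463 from limma). Without KD4 replicate 1, the KD3 value passed (adjusted p = 0.0318 from limma). Each knock-down had 1 array of 3 on which it was above background. PLA2G4D too therefore entered the test only through CTL, the group where it was high. The adjusted p values of PLA2G4D are given as computed, and no fall is read from them. Its call in KD4 was lost without CTL replicate 3 (adjusted p = 0.0512 from limma) and with scaling to the 75th percentile (0.0594), and the adjusted p of its alternatives reached 0.0594. PLAAT3, PLA2G3, PLA2G4D, PLA2G7 and PTGS2 also stand in the study's lists of regulated genes, which were drawn from these arrays, so that those lists are no separate evidence.

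SLCO2A1, which carries prostaglandins into cells for breakdown, was the only one of 13 tested synthases, reductases and transporters past the thresholds. Its log2 signals were 4.96, 5.28 and 5.21 in KD3, 4.68, 4.55 and 5.29 in KD4, and 6.35, 6.05 and 6.40 in CTL, so that all knock-down arrays were lower. It fell in both (log2 fold changes -1.12 and -1.43, standard error 0.193, adjusted p = 0.00474 and 0.00111 from limma). The carbonyl reductase CBR1 had log2 fold changes of 0.17 and 0.23, and the aldo-keto reductase AKR1B1 had -0.16 and -0.09. Of 5 tested prostanoid receptors outside the members, none passed in KD3 by limma. PTGFR, the receptor of prostaglandin F, fell in KD4 (log2 fold change -0.91, standard error 0.249, adjusted p = 0.0256 from limma). That call was lost in 6 alternatives, among them without CTL replicate 1 (adjusted p = 0.0599), without CTL replicate 2 (0.0769), without KD4 replicate 1 (0.0704) and without KD4 replicate 3 (0.0812), the highest that any alternative gave. In KD3 its log2 fold change was -0.58 (adjusted p = 0.145 from limma), and the difference between the knock-downs had an adjusted p of 0.495 from limma. A second PTGFR probe was above background on 3 CTL, 2 KD3 and 0 KD4 arrays. PTGER3 and TBXA2R, the receptors for prostaglandin E and thromboxane, had log2 fold changes between -0.19 and 0.19.

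In the leukotriene branch, which starts from the same fatty acid, 3 of 13 tested genes were past the thresholds in each knock-down. The lipoxygenase ALOX5, which begins leukotriene synthesis, had log2 signals of 7.77, 7.50 and 7.45 in KD3, 7.36, 7.44 and 7.56 in KD4, and 8.80, 9.10 and 9.38 in CTL. It fell in both (log2 fold changes -1.52 and -1.64, standard error 0.148, adjusted p = 0.000283 and 0.000153 from limma). LTC4S, the synthase of cysteinyl leukotrienes, fell as well (-1.43 and -1.93, standard error 0.216, adjusted p = 0.00253 and 0.000453 from limma). CYSLTR1, a receptor of cysteinyl leukotrienes, rose, with log2 signals of 5.85, 5.82 and 5.68 in KD3, 7.81, 7.93 and 7.92 in KD4, and 4.25, 4.48 and 4.32 in CTL. Its log2 fold changes were 1.43 and 3.54 (standard error 0.0846, adjusted p = 2.19e-05 and 3.5e-07 from limma). Here KD4 was the highest group, whereas PLA2G4A, PTGS2 and PLAAT3 were highest in KD3.

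Downstream of the PTGER2 and PTGER4 receptors, 1 of 23 tested cyclic AMP genes was past the thresholds: ADCY7, an adenylyl cyclase, fell in both (log2 fold changes -1.03 and -1.26, standard error 0.120, adjusted p = 0.000704 and 0.000197 from limma). GNAS, the stimulatory G protein, had log2 fold changes of -0.28 and -0.24, and the cyclase ADCY3 had 0.22 and 0.00. Of 17 tested immediate-early genes, a group that responds to mitogens together with PTGS2, EGR2 fell in both (log2 fold changes -1.19 and -1.40, standard error 0.129, adjusted p = 0.00049 and 0.000167 from limma). The others lay between -0.62 and 0.45 in KD3 and between -0.43 and 0.71 in KD4, with ATF3 at -0.20 and -0.43 and IER2 at -0.13 and -0.04. By adjusted p alone, without the fold threshold, 3 of the 17 were higher and 3 lower in KD3, and 5 were higher and 3 lower in KD4, EGR2 included. Of all 16082 genes, 1671 were higher and 2378 lower in KD3 by that measure, and 2364 higher and 3188 lower in KD4. In the list, the 5 higher in KD4 were EGR1 (0.71, adjusted p = 0.0124 from limma), JUN (0.56, 0.00392), DUSP1 (0.52, 0.00836), FOS (0.49, 0.0102) and NR4A3 (0.42, 0.034). The 3 lower in KD4 were EGR2, ATF3 (-0.43, adjusted p = 0.0306 from limma) and CCN1 (-0.25, 0.0455). In KD3 the 3 higher were MYC (0.45, adjusted p = 0.00253 from limma), NR4A3 (0.43, 0.042) and JUN (0.34, 0.0427). The 3 lower in KD3 were EGR2, IER3 (-0.48, adjusted p = 0.00629 from limma) and CCN1 (-0.32, 0.0209). Of 14 tested NF-kB and cytokine genes, 0 were past both thresholds in either knock-down by limma. An adjusted p under 0.05 without the fold threshold was reached by 4 in KD3 and 6 in KD4, beside 4049 and 5552 of all 16082 genes. Nothing is read from these counts. SOD2 had log2 fold changes of -0.33 and -0.39, NFKBIA -0.15 and -0.23, and NFKBIE 0.05 and 0.06. IL1A, IL1B and CXCL8 were not tested.

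**Figure D4:**
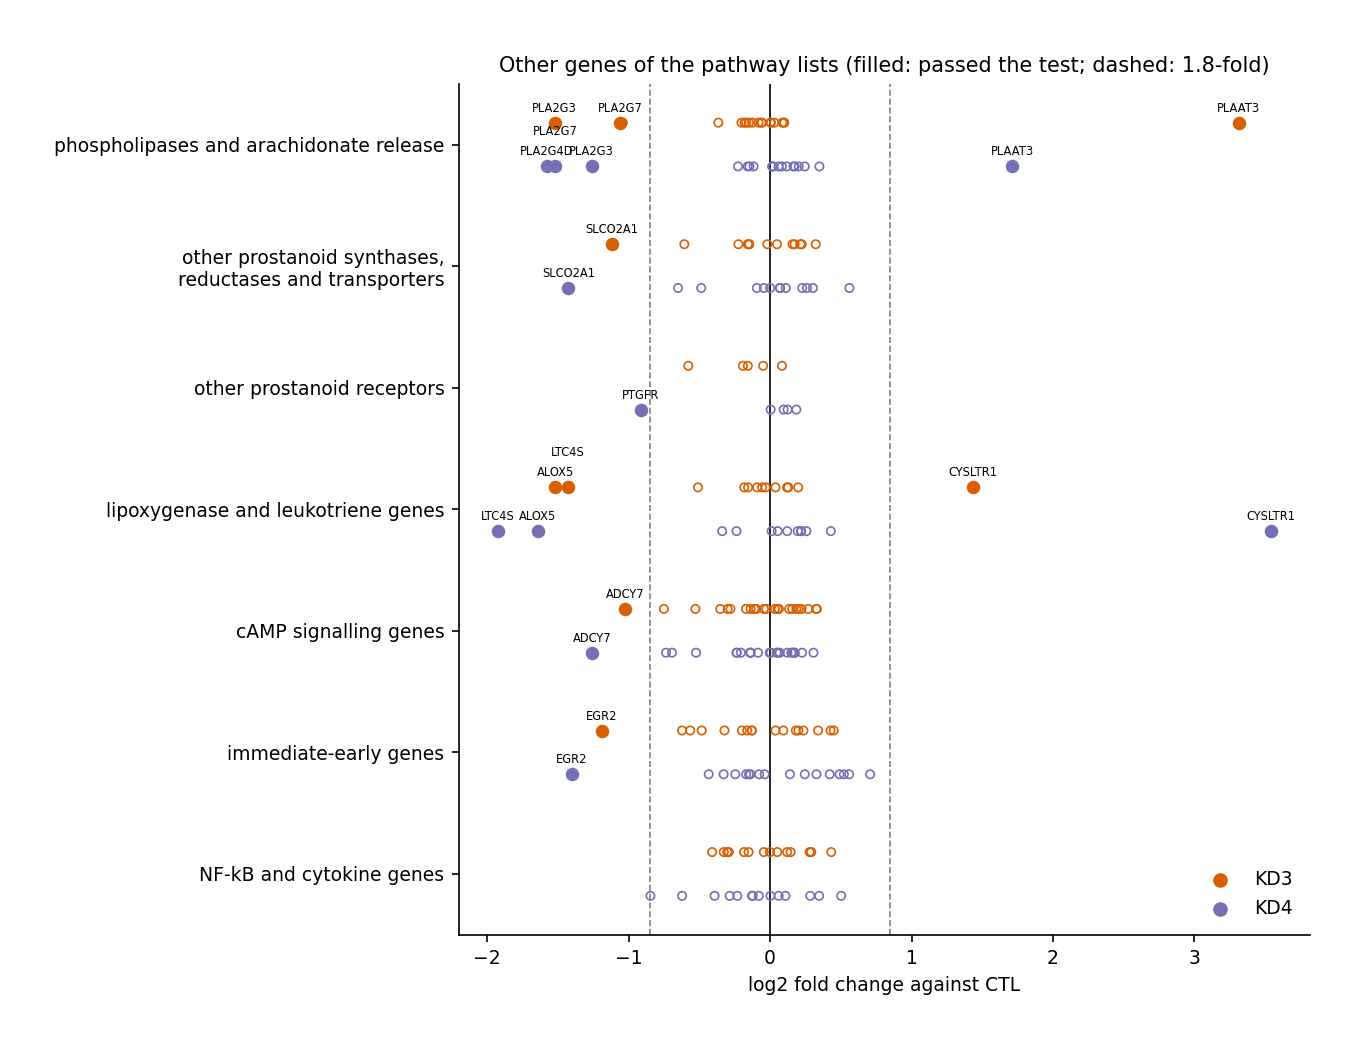
Log2 fold change against CTL (horizontal axis) of the tested genes of 7 pathway lists (vertical axis) in KD3 and KD4, where filled points passed both thresholds, are named, and dashed lines mark 1.8-fold. PLAAT3 and CYSLTR1 stood alone on the higher side, and the lower side held phospholipase and leukotriene genes, SLCO2A1, PTGFR, ADCY7 and EGR2.

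Across the 9 arrays, the 5 genes whose brightest probe was most like PTGS2 in its log2 signal were EFR3A, a plasma membrane scaffold of phosphoinositide synthesis, SACM1L, a phosphoinositide phosphatase, ZNF233, a zinc finger gene, SPANXN3, a testis gene, and CRABP1, which binds retinoic acid. Their Pearson correlations with PTGS2 were 0.981, 0.981, 0.979, 0.979 and 0.977. Of 16080 genes compared, 271 had a correlation over 0.9. The 9 arrays fall into 3 groups, and a gene with the same order of group means correlates highly for that reason alone. Among the members, PLA2G4A had a correlation of 0.937 with PTGS2, PTGER2 one of -0.901 and PTGES one of -0.851. EFR3A had mean log2 signals of 12.40 in KD3, 12.10 in KD4 and 11.45 in CTL, the same order as PTGS2 and PLA2G4A.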

How the data were processed

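RNA of 9 HEK293 populations (100 ng input) was hybridized to one-color Agilent arrays. The authors deposited scanner files from Feature Extraction 10.10 (10.10.1.1 in the file headers) with the intensity of each spot, background-subtracted, and a table of log2 values, the processed signal quantile normalized over the arrays (the methods write quintile, which was read as quantile). The log2 table served as an alternative.

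Here, control spots and outlier-marked spots (260 to 634 of 58717 per array) were left out, log2 intensity was quantile normalized (limma 3.58.1, R 4.3.3), and spots of a probe were averaged. Of 42405 probes, 21 lacked a value and were dropped, and 32276 were tested, each of them well above background on all 3 arrays of some group. Replicate arrays correlated at 0.9946 or more. No spot was saturated, and the number of arrays limits the precision. RefSeq accessions named 25422 probes through a gene table of GRCh38.p14; the design of the array is older, and coordinates are those of RefSeq, not of probes. Promoter sequences are from RefSeq.

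One limma fit (lmFit, eBayes, a mean for each group) held all 9 arrays, with Benjamini-Hochberg adjustment over all tested probes, and thresholds of adjusted p under 0.05 and 1.8-fold following the methods. A gene was its brightest tested probe. The fit was tested on simulated data. Alternatives covered scaling to the 75th percentile, normexp (offset 50), the authors' values, the filter, the methods' t-test, the fold threshold, the groups fitted, any probe of a gene, replicate and slide as blocks, and leaving out each array. Named genes were all members and tested neighbours, up to 6 called genes of each pathway list (or the brightest up to 3), the 5 genes most like PTGS2, and SMCHD1. The untested cytokines, EGR1, JUN, DUSP1, FOS, NR4A3, MYC, IER3 and CCN1 were named outside this rule, after their values were seen. 1 neighbour is not reported here by name, though it is in the counts. Members and lists were chosen with earlier results of these data known. Each slide held all groups, and all arrays had 1 scan date.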

Additional observations from a re-analysis of the deposited data

Results flagged for a closer look

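The effects of the knock-downs on PLAAT3 and CYSLTR1 differed from each other by limma's test of KD4 against KD3. For PLAAT3 the log2 difference was -1.60, KD4 being lower (standard error 0.109, adjusted p = 0.000469 from limma), with all 3 KD4 arrays below all 3 KD3 arrays. For CYSLTR1 it was 2.11, KD4 being higher (standard error 0.0846, adjusted p = 2.9e-05 from limma), with all 3 KD4 arrays above all 3 KD3 arrays.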

How the results depend on the processing

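No member, named pathway gene or neighbour past the thresholds changed direction under any alternative that was run. With normexp background correction 1 member, PLA2G4A, was past the thresholds in KD3 and 1 in KD4, with 3 and 4 pathway genes and, in KD4, 1 neighbour. With only probes above background on all 9 arrays, which leaves out PTGS2, PTGES and BRINP3, the members counted 1 in KD3 and 1 in KD4 and the neighbours 0 and 1. The methods' t-test with adjustment gave 1 and 1 members, 2, 6 and 0 pathway genes in KD3, KD4 and KD4 against KD3, and 0 and 1 neighbours; without adjustment it gave 1 neighbour between the knock-downs. Without the fold threshold there were 5 members in KD4 and 1 between the knock-downs, 26, 36 and 4 pathway genes, and 9, 11 and 2 neighbours. Over all 16082 genes there were then 4049, 5552 and 523. Scaling to the 75th percentile gave 2 neighbours in KD3, as did any probe of a gene, and fitting only the groups compared gave 1 neighbour between the knock-downs.

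Leaving out each array in turn gave 3 to 3, 2 to 3 and 0 to 0 members in KD3, KD4 and KD4 against KD3, 9 to 10, 10 to 12 and 2 to 2 pathway genes, and 1 to 2, 2 to 3 and 0 to 1 neighbours. The member lost in KD4 was PTGES, without KD4 replicate 2 (log2 fold change -1.07), KD4 replicate 3 (-0.90) or CTL replicate 2 (-1.09). The second neighbour in KD3 was HMCN1, without KD3 replicate 1 (-0.95), CTL replicate 1 (-0.89) or CTL replicate 3 (-0.85). The third in KD4 was CFHR4, without KD3 replicate 2 (adjusted p = 0.0413 from limma) or CTL replicate 3 (0.0353), against 0.0693 with all arrays. The neighbour between the knock-downs was BRINP3, without CTL replicate 1 (adjusted p = 0.029 from limma) or CTL replicate 3 (0.0417), against 0.0783. Across the alternatives the log2 fold change of PLA2G4A lay between 1.91 and 2.42 in KD3 and between 1.69 and 2.15 in KD4. As the members were selected on these same signals, that range describes the effect of processing and is no test. With the replicate number as a replicate block, the members counted 3, 3 and 0, the pathway genes 10, 11 and 2 and the neighbours 1, 3 and 0, with PLA2G4D gained in KD3 (adjusted p = 0.00546 from limma) and CFHR4 in KD4 (0.0129). Both genes entered the test only through a group where they were high, and nothing is read from their p values. The replicate numbers did not pair the arrays: deviations of same-numbered arrays correlated between -0.08 and 0.14.

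Counts of all genes also moved. Normexp left 298 and 381 genes past the thresholds in KD3 and KD4, and the methods' t-test with adjustment 198 and 402, against 713 and 899. Signal near background limits PTGS1, PTGS2 and PTGES.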
